A study of Mus musculus with 24 samples.

Results

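Genes that mark oligodendrocyte precursor cells, and the steps by which these cells become oligodendrocytes, were followed in frontal cortex RNA of mice that overexpress interleukin-6. These 9 genes, Pdgfra, Cspg4, Olig1, Olig2, Sox10, Gpr17, Bcas1, Enpp6 and Myrf, were taken by symbol from the 33000 genes of the count table, and each symbol matched 1 row. All mice, of both genotypes, were labelled as C57BL/6 and 3 months old, and total RNA was made from frontal cortex. The WT group and the GFAP-IL6 group, homozygous for a transgene in which the astrocyte promoter GFAP drives Il6, held 3 mice each. RNA of each of the 6 mice was sequenced by 3'Pool-seq, a method that reads the 3' ends of polyadenylated transcripts, in 4 libraries. Tagmentation was done on 2 ng or on 1 ng of cDNA, once in set A and once in set B, and what distinguishes the sets is not stated in the labels. The 4 libraries of a mouse repeat the same RNA, so their counts were summed and the mouse was the replicate (n = 3 per genotype).

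Oligodendrocyte precursor cells persist in the adult cortex, where they carry the PDGF receptor alpha and the proteoglycan NG2 on their surface, divide, and give rise to oligodendrocytes. On leaving the cell cycle they lose both surface proteins, pass through a short committed stage and then switch on the myelin programme. The transcription factors of the lineage stay on from the precursor to the mature cell, so the RNA of those factors in whole tissue is a sum over all these stages. In bulk RNA of this kind, fewer cells of a type and less RNA per cell cannot be told apart.

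Summed counts per mouse ranged from 7852743 to 37582644, and single libraries held from 1524165 to 12256374 counts. The genotypes differed in Il6 RNA, which stood at 0.260, 0.166 and 0 CPM (counts scaled to a common library total, with TMM factors) in the WT mice and at 3.16, 1.58 and 4.23 CPM in the GFAP-IL6 mice. Transcripts of the transgene and of the endogenous Il6 gene were not told apart. Gfap, the intermediate filament of reactive astrocytes, was at 20.3, 23.6 and 16.0 CPM in WT and at 80.9, 102 and 146 CPM in GFAP-IL6, and rose by 2.44 on the log2 scale (SE 0.185, edgeR quasi-likelihood test). WT 3 stood apart in markers of striatum and choroid plexus, whose summed level was 4214 CPM there and between 220 and 912 CPM in the other 5 mice, mostly from Ttr, a transporter made by the choroid plexus.

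No change with genotype was called in any of the 9 lineage genes. All 9 passed the filter on low counts, and 0 were called at an adjusted p under 0.05 (Benjamini-Hochberg over 14621 genes) by edgeR or by DESeq2, with 0 at an unadjusted p under 0.05 in both, and 0 were called with any 1 mouse left out, WT 3 included. Of all genes tested, 1.80% were called, 255 higher and 8 lower in GFAP-IL6, and 1.23% were DEGs that also had an absolute log2 fold change above 1. Log2 fold changes of the 9 genes lay between -0.29 and 0.30, with 5 above 0 and 4 below, and their median was 0.04 against -0.01 over all genes tested. The 95% intervals of all 9 lay within -0.87 and 0.88, so a change of 1 on the log2 scale was outside each of them, while small changes in either direction were inside them. For 0 of the 9 genes did the mice of the genotypes separate without overlap, as they did for 14.4% of all genes tested.

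**Figure D1:**
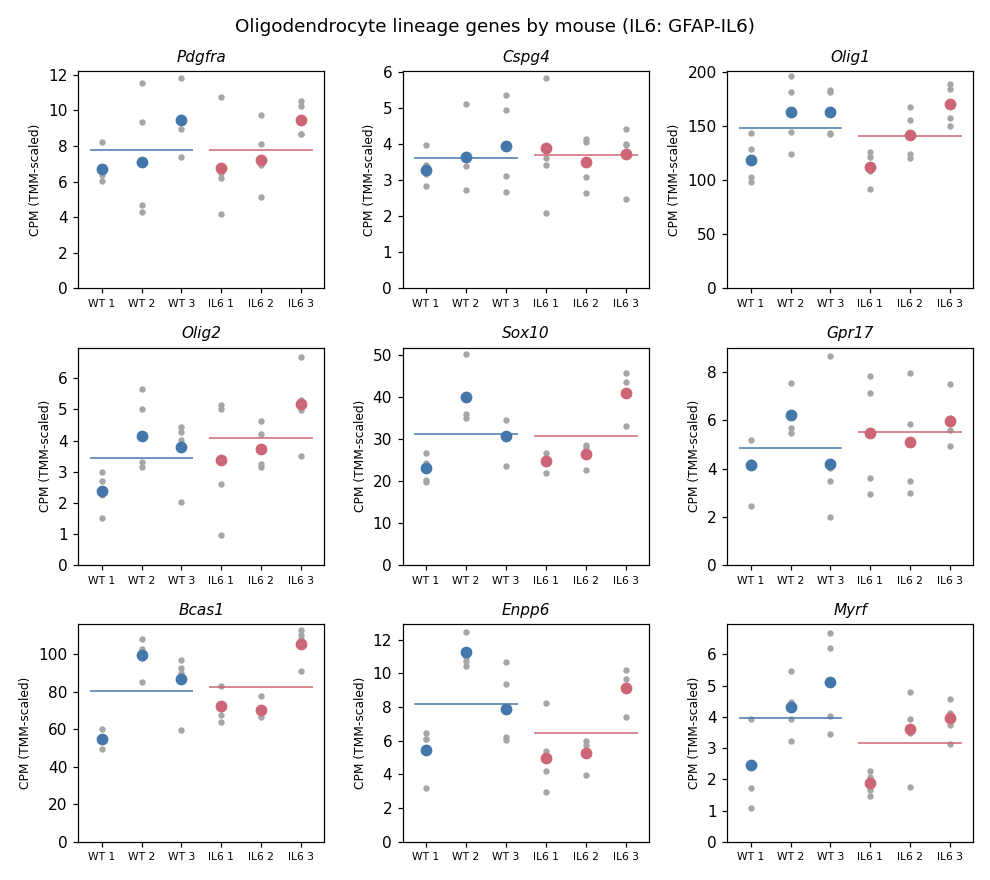
Level of each of the 9 genes in CPM (counts on a common library total, TMM-scaled, y axis from 0) in the 3 WT and 3 GFAP-IL6 mice (IL6 on the axis). Large points are the 4 libraries of a mouse summed, small grey points are single libraries and lines are means of a genotype. The genotypes overlap in all 9 panels, and WT 1 is the lowest WT mouse in each.

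Pdgfra (chr5:75152292-75198215, plus strand, mm10) encodes the receptor through which PDGF-A keeps precursors dividing. It was at 6.71, 7.09 and 9.45 CPM in WT 1 to 3 and at 6.75, 7.20 and 9.44 CPM in GFAP-IL6 1 to 3. The 3 levels of one genotype thus lay beside the 3 of the other, and the WT mean of 7.75 ± 1.48 CPM was close to the 7.80 ± 1.44 CPM of GFAP-IL6 (SD, n = 3 each). The log2 fold change was 0.07 (SE 0.189, 95% interval -0.33 to 0.47, edgeR adjusted p = 0.968).

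Cspg4 (chr9:56865033-56899870, plus strand) encodes NG2, the proteoglycan for which the precursors are also named. Its levels were 3.28, 3.66 and 3.94 CPM in WT and 3.90, 3.50 and 3.74 CPM in GFAP-IL6. All GFAP-IL6 mice were within the range of the WT mice, and the log2 fold change was 0.04 (SE 0.225, 95% interval -0.44 to 0.52, edgeR adjusted p = 0.985). Cspg4 was the steadiest of the 9 genes across mice, 1.20-fold between the highest and the lowest. Both surface genes are also made outside the lineage, Cspg4 by pericytes and Pdgfra by fibroblasts of the meninges and vessels. Of 9 pericyte and smooth muscle markers tested 1 was called, Rgs5, which rose by 0.52 (edgeR adjusted p = 0.0206), and of 10 fibroblast and meningeal markers 0 were called. The summed level of the pericyte markers ranged from 150 to 190 CPM in WT and from 197 to 231 CPM in GFAP-IL6, and their part in the level of Cspg4 was not tested. Those of the fibroblast markers ranged from 49.1 to 88.9 CPM in WT and from 56.2 to 85.7 CPM in GFAP-IL6.

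Among the transcription factors, Olig1 (chr16:91269772-91271933, plus strand, a single exon) was the most abundant of the 9 genes. Olig1 and Olig2 are paired basic helix-loop-helix factors, Olig2 being needed to specify the lineage and Olig1 acting mainly in maturation and remyelination. Olig1 stood at 118, 163 and 163 CPM in WT and at 112, 141 and 170 CPM in GFAP-IL6. The lowest and the highest level were both in GFAP-IL6 mice, and the log2 fold change of -0.06 (SE 0.142, 95% interval -0.36 to 0.24, edgeR adjusted p = 0.958) had the narrowest interval of the 9. Olig2 (chr16:91225457-91228677, plus strand) was at 2.39, 4.16 and 3.81 CPM in WT and at 3.38, 3.74 and 5.16 CPM in GFAP-IL6. Its log2 fold change of 0.30 (SE 0.268, 95% interval -0.27 to 0.88) was the highest of the 9 and was not called (edgeR adjusted p = 0.845). Only GFAP-IL6 3 lay above the range of the WT mice. Counts on Olig1 were between 32.9 and 49.5 times those on Olig2 in every mouse, so Olig2 rested on 29 to 199 summed counts a mouse and Olig1 on 1058 to 6557.

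Sox10 (chr15:79154908-79165240, minus strand) encodes the SOX factor that drives myelin genes together with the Myrf protein. The WT mice had 23.1, 39.8 and 30.6 CPM and the GFAP-IL6 mice 24.7, 26.3 and 40.9 CPM. Each genotype held 1 mouse near 40 CPM and at least 1 under 25 CPM. The means were 31.2 ± 8.39 CPM and 30.6 ± 8.90 CPM (SD, n = 3 each). The log2 fold change was -0.00075 (SE 0.197, 95% interval -0.42 to 0.42, edgeR adjusted p = 0.9998).

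Of the genes of the committed and newly formed stages, Gpr17 (chr18:31942997-31949636, minus strand), a receptor that marks committed precursors and holds back their maturation, was at 4.16, 6.21 and 4.20 CPM in WT. The GFAP-IL6 mice had 5.48, 5.08 and 5.97 CPM, all between the lowest and the highest WT mouse, with a log2 fold change of 0.17 (SE 0.212, 95% interval -0.28 to 0.62, edgeR adjusted p = 0.905). Lims2, a gene on the opposite strand, overlaps the last exon of Gpr17 and was counted at 16.0 to 23.5 CPM. The strand setting of the counting is not given in the sources used here, so reads of the pair may not be told apart. An antisense gene also covers Olig1, Gm15966, and it had 0 counts.

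Bcas1 (chr2:170346991-170427845, minus strand), which marks early myelinating oligodendrocytes, was the second most abundant gene. It stood at 54.9, 99.4 and 86.7 CPM in WT and at 72.3, 70.2 and 106 CPM in GFAP-IL6. A WT mouse was lowest and a GFAP-IL6 mouse highest, and the log2 fold change was 0.06 (SE 0.185, 95% interval -0.34 to 0.45, edgeR adjusted p = 0.975).

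Enpp6 (chr8:46986887-47096762, plus strand) encodes a choline phosphodiesterase switched on in newly forming oligodendrocytes. Its levels of 5.46, 11.2 and 7.87 CPM in WT and 4.96, 5.28 and 9.13 CPM in GFAP-IL6 spread over 2.27-fold. GFAP-IL6 1 and GFAP-IL6 2 lay under all WT mice, whereas GFAP-IL6 3 lay above WT 1 and WT 3. The log2 fold change of -0.29 (SE 0.269, 95% interval -0.86 to 0.28) was the lowest of the 9 and was not called (edgeR adjusted p = 0.856). Enpp6 depended most on single mice. Without GFAP-IL6 3 its log2 fold change was -0.67 (unadjusted p = 0.0266, adjusted p = 0.710, edgeR), without WT 1 it was -0.54 (unadjusted p = 0.0491, adjusted p = 0.534, edgeR), and without WT 2 it was 0.04.

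Myrf (chr19:10208272-10240748, minus strand), the regulator that turns on and maintains myelin genes, was at 2.45, 4.32 and 5.12 CPM in WT and at 1.90, 3.60 and 3.97 CPM in GFAP-IL6. GFAP-IL6 1 was under all WT mice and the other two lay among them. The log2 fold change was -0.21 (SE 0.310, 95% interval -0.87 to 0.45, edgeR adjusted p = 0.923), the widest interval of the 9, on 18 to 153 summed counts a mouse.

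Setting levels of different genes side by side, CPM per kb of deposited gene length put Olig1 first at 66.9, before Bcas1 at 26.4 and Sox10 at 11.4, and the ranges over the 6 mice of these did not overlap. Enpp6 at 2.21 CPM per kb lay under Sox10 without overlap. Below it came Olig2 at 1.55, Gpr17 at 0.998, Pdgfra at 0.887, Myrf at 0.627 and Cspg4 at 0.456 CPM per kb, and each of these overlapped the gene before it. A 3' method counts transcripts near their ends, so the division by length may place long genes too low. By CPM alone the first 3 kept their places, Pdgfra came next at 7.77 CPM and Myrf last at 3.56 CPM.

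The same comparison was made in each of the 4 library sets, which repeat the same mice and are no independent support. In each set 0 of the 9 genes were called and 0 had an unadjusted p under 0.05, where the calls over all genes tested were 1.03% (2 ng, set A), 1.10% (1 ng, set A), 1.08% (2 ng, set B) and 1.08% (1 ng, set B). The smallest adjusted p of any of the 9 in any set was 0.835, for Olig2. Olig2, Gpr17 and Bcas1 had log2 fold changes above 0 in 4 of 4 sets, from 0.05 to 0.68, from 0.04 to 0.38 and from 0.02 to 0.24. The other 6 took both signs over the sets, Cspg4 over the widest range from -0.42 to 0.54. With the set A libraries alone its log2 fold change was -0.36, and with the set B libraries alone it was 0.35, with intervals of -1.05 to 0.34 and -0.28 to 0.99 that overlap, and the difference between the sets was not tested.

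**Figure D2:**
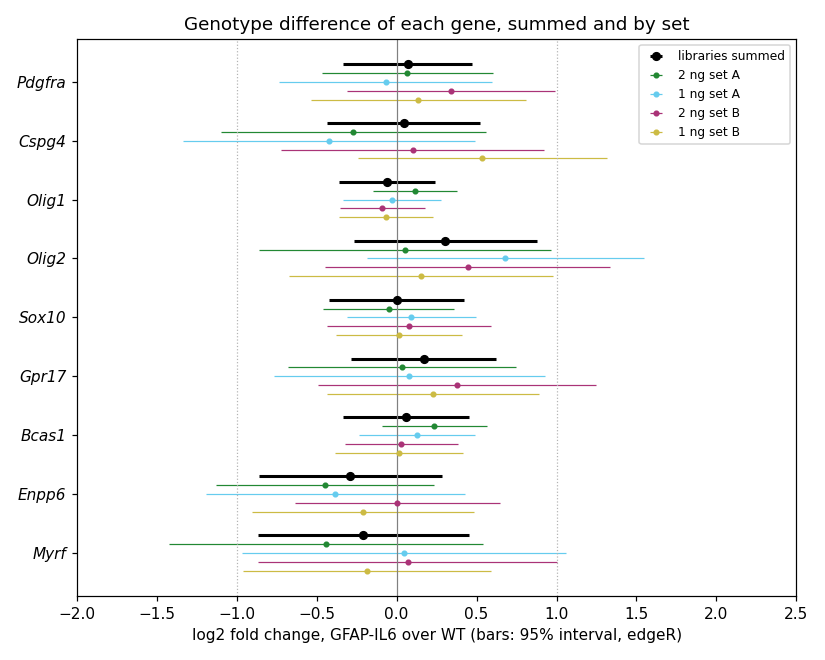
Log2 fold change of GFAP-IL6 over WT (x axis) for the 9 genes, from the summed libraries (black) and from each of the 4 sets (colours), with 95% intervals of the edgeR fit and dotted lines at -1 and 1. Every interval crosses 0, and all 9 intervals of the summed libraries lie inside the dotted lines.

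The means of the genotypes differed by less than the SD of the WT mice in 9 of the 9 genes. WT 1 was the lowest of the WT mice in 9 of 9 genes, and GFAP-IL6 3 was the highest of its genotype in 8 of 9, Cspg4 being the exception. The 9 genes summed to 221, 339 and 315 CPM in WT (291 ± 62.3, SD, n = 3) and to 235, 266 and 354 CPM in GFAP-IL6 (285 ± 61.8, SD, n = 3). Most of this sum is Olig1 and Bcas1. Pdgfra and Cspg4 together varied least, from 9.99 to 13.4 CPM (1.34-fold). The transcription factors summed to between 140 and 216 CPM (1.55-fold), and Gpr17, Bcas1, Enpp6 and Myrf to between 67.0 and 125 CPM (1.86-fold).

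This spread was set beside that of other genes of like level, as the standard deviation of log2 CPM over the mice of a genotype. Bcas1 lay at the 99.7th percentile of such genes, Sox10 at the 99.3rd, Olig1 at the 98.7th, Enpp6 at the 98.1st and Myrf at the 93.7th. Olig2 at the 72.6th, Pdgfra at the 68.4th, Gpr17 at the 48.1st and Cspg4 at the 2.29th percentile were not among the most variable. The 5 genes above the 90th percentile were thus the most abundant factors, Olig1 and Sox10, and the committed and newly formed genes other than Gpr17. The percentiles are a description of 6 mice, with no test.

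The 4 libraries of a mouse share its RNA but differ in set and cDNA amount, so their spread includes differences between these. Single libraries also hold fewer counts than their sum, so counting error is larger over libraries than over mice. For Sox10 the coefficient of variation was 28.0% over mice of a genotype, with libraries summed, and 13.3% over the 4 single libraries of a mouse, and for Bcas1 it was 26.3% and 11.0%. Enpp6 also varied more over mice (35.9%) than over the libraries of a mouse (23.1%). Olig1 came to 19.0% and 15.7%, and Myrf to 35.0% and 29.8%. In Pdgfra, Cspg4, Olig2 and Gpr17 the order was the other way, 26.4% to 36.0% over libraries and 7.46% to 24.9% over mice. Counting alone gives 28.0% in a library for Cspg4 and 30.9% for Myrf, which held as few as 4 and 3 counts in a library. Summing the libraries brought the counting error of Cspg4 to 13.7% of its level.

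**Figure D3:**
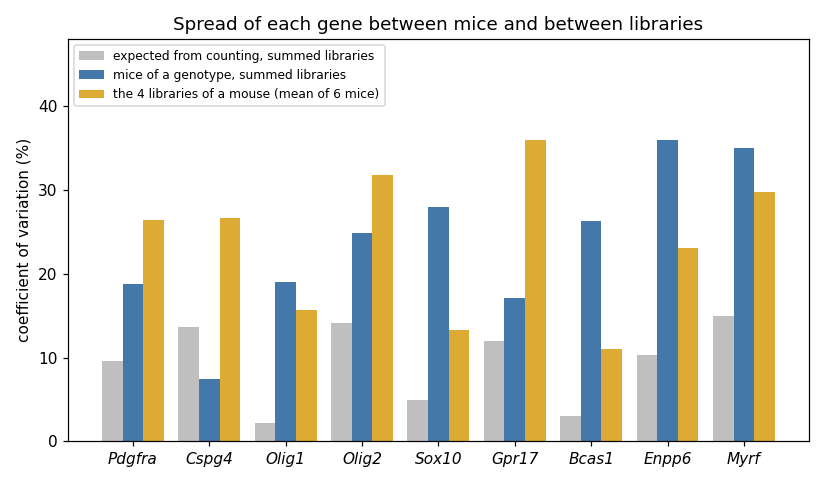
Coefficient of variation in percent (y axis) of each gene: expected from counting alone in the summed libraries (grey), between mice of a genotype in the summed libraries (blue) and between the 4 libraries of a mouse (yellow, mean of 6 mice). In Olig1, Sox10, Bcas1, Enpp6 and Myrf the blue bar is the highest of the 3, and in Cspg4 it is below the grey one.

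Across the library sets, Olig1 was lower in set A than in set B in 6 of 6 mice, by a mean log2 ratio of -0.38 ± 0.0811 (SD). Pdgfra went the other way, higher in set A in 6 of 6 mice with a mean log2 ratio of 0.47 ± 0.396 (SD), and Bcas1 was lower with 2 ng than with 1 ng in 6 of 6 mice, by -0.14 ± 0.116 (SD). Each reached the smallest p that 6 mice allow in an exact sign-flip permutation test (two-sided p = 0.0312). It became 0.188 after Benjamini-Hochberg adjustment over the 18 tests of 9 genes and 2 contrasts, and none of the 18 passed. With this smallest p, none can pass unless most of the 18 reach it, so the adjusted values cannot decide on single genes. Every set and cDNA amount held all 6 mice.

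Other genes linked to the lineage were read from lists, and which cells made their RNA in this bulk tissue was not tested. Of 20 other precursor genes, all tested, 0 were called, with 11 above 0 and 9 below and a median log2 fold change of 0.04. The most abundant were Ptprz1, a receptor phosphatase, at 45.7 CPM in WT and 48.2 CPM in GFAP-IL6 (log2 fold change 0.06, edgeR adjusted p = 0.935), and Cdo1, cysteine dioxygenase, at 41.6 and 38.8 CPM (-0.09, edgeR adjusted p = 0.918). The sum of the 20 genes was almost level over the mice, from 251 to 265 CPM. Sox6, a SOX factor that keeps precursors immature, was the 1 gene of this list with an unadjusted p under 0.05 and is named here after its value was seen. It was at 5.46, 7.65 and 5.77 CPM in WT and at 12.2, 8.63 and 8.90 CPM in GFAP-IL6. The genotypes did not overlap, as in 14.4% of all genes tested, and Sox6 was not called (log2 fold change 0.61, edgeR adjusted p = 0.199).

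Of 20 other genes of newly formed oligodendrocytes 17 were tested and 0 called, with a median log2 fold change of 0.01. Sirt2, a deacetylase of oligodendrocytes, stood at 201 and 202 CPM in WT and GFAP-IL6, and Nfasc, the cell adhesion protein neurofascin, at 66.5 and 71.7 CPM. Tmem163 was the 1 gene of this list with an unadjusted p under 0.05 and is also named after its value was seen. It was at 8.06, 6.98 and 10.6 CPM in WT and at 5.91, 4.75 and 6.07 CPM in GFAP-IL6. The genotypes did not overlap, and Tmem163 was not called (log2 fold change -0.59, edgeR adjusted p = 0.253). Of 17 further transcription regulators of the lineage 16 were tested and 0 called, with 4 above 0 and 12 below (median -0.04). The most abundant were Id2, an inhibitor of differentiation, at 482 and 455 CPM, and Klf9, a thyroid hormone target, at 177 and 158 CPM. The sum of this list was 912 to 960 CPM in WT and 855 to 910 CPM in GFAP-IL6, lower without overlap, and was not tested. Of 10 proliferation genes 8 were tested and 0 called as well (median -0.04). The most abundant of those were Cdca8 at 3.92 and 3.57 CPM and Rrm2 at 3.14 and 3.20 CPM, levels close to those of Olig2 and Cspg4.

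Signals and receptors of the lineage gave 0 calls among 26 tested of 29 listed, with 19 above 0 and a median log2 fold change of 0.06. Pdgfa, the ligand of the Pdgfra protein, was at 103 ± 8.81 CPM in WT and 105 ± 8.22 CPM in GFAP-IL6 (SD, n = 3 each; log2 fold change 0.02, edgeR adjusted p = 0.987), a difference smaller than the spread between mice, as for its receptor. Lingo1, a brake on differentiation, was at 145 and 132 CPM (-0.13, edgeR adjusted p = 0.813). In this list 3 genes had an unadjusted p under 0.05 (edgeR), and they are named after their values were seen. Of these, 2 are receptor genes for the transgene's product. Il6ra, which binds IL-6, had a log2 fold change of 0.62 (edgeR adjusted p = 0.253). Il6st, the signalling subunit, had one of 0.32 (edgeR adjusted p = 0.452). The third was Igf1r, at 0.29 (edgeR adjusted p = 0.538), and none of the 3 was called.

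The 20 myelin genes were all tested, and 1 was called, higher in GFAP-IL6. This was Apod, a lipid carrier made by oligodendrocytes and also by astrocytes and vascular fibroblasts, at 213, 299 and 250 CPM in WT and at 317, 367 and 536 CPM in GFAP-IL6. The genotypes did not overlap, and Apod rose by 0.68 on the log2 scale (SE 0.160, edgeR adjusted p = 0.0412). The median of the list was -0.01, with 8 genes above 0 and 12 below. The myelin genes summed to 7349, 10980 and 9615 CPM in WT and to 8850, 7403 and 10841 CPM in GFAP-IL6. WT 1 was the lowest WT mouse and GFAP-IL6 3 the highest GFAP-IL6 mouse in this sum as in that of the 9 lineage genes. At or above the 90th percentile of spread were 18 of the 20 myelin genes, 5 of the 9 lineage genes and 6 of the 20 other precursor genes. So were 0 of the 17 tested genes of newly formed oligodendrocytes and 7 of the 10 fibroblast and meningeal markers, so high spread was neither shared by all lineage lists nor particular to them. The part of mature oligodendrocyte RNA in the spread of the 9 genes was not tested.

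Among markers of other cell types in the same RNA, calls were mostly in the microglia list. Of 8 microglia markers 6 rose, among them Aif1 by 1.22 and C1qa by 1.39 on the log2 scale, and their sum was 395 to 450 CPM in WT and 636 to 815 CPM in GFAP-IL6. Of 9 astrocyte markers 1 was called, Gfap, and their sum was 1696 to 1844 CPM in WT and 1933 to 2132 CPM in GFAP-IL6, also without overlap, as were the pericyte sums above. The lineage transcription regulators summed lower in GFAP-IL6, likewise without overlap. Such separation of sums was not tested, and single genes separated in 14.4% of all genes tested. Of 8 neuron markers 0 were called (median -0.08). The part of the microglia and astrocyte RNA in the values of the 9 genes was not tested. Without TMM scaling the median of all genes moved from -0.01 to 0.02, and 0 of the 9 genes were called.

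**Figure D4:**
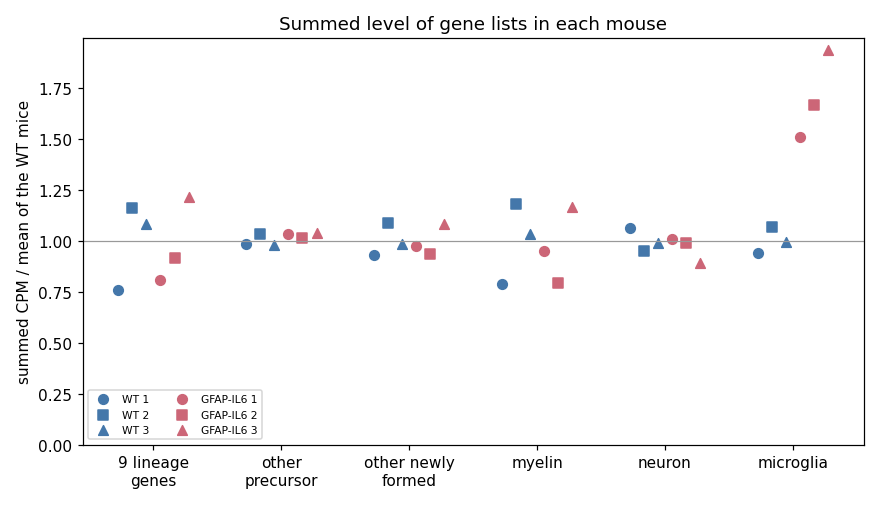
Summed CPM of 6 gene lists in each mouse, divided by the mean of the WT mice (y axis from 0; WT blue, GFAP-IL6 red, one symbol shape for each mouse number). The lineage and myelin sums spread between mice in both genotypes, the other precursor genes stay near 1, and in the microglia list all GFAP-IL6 mice lie above all WT mice, as they do in the astrocyte and pericyte sums, which are not drawn.

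Promoters were looked at because Sox10 is itself one of the 9 genes and IL-6 acts through STAT factors. RefSeq windows of 300 bases around the start site (GRCm38.p6) were at hand for 4 of the 9, Pdgfra, Cspg4, Olig2 and Enpp6. The STAT motif TTCNNNGAA, read on both strands, was in 0 of these 4 and in 8.30% of 32851 promoters. The SOX motif AACAATG, likewise read on both strands, was in Olig2 and Enpp6 and in 3.78% of all promoters. These 2 windows are shown for that match, 5′ to 3′ on the plus strand with the motif in capitals, on the minus strand in Olig2, 61 bases before the RefSeq start site there and 213 bases before it in Enpp6. The RefSeq start of Olig2 lies downstream of the GENCODE gene start given above, so its window falls inside the GENCODE gene.
Enpp6, chr8:46986657-46986683: gtttaccaaaAACAATGaggttgtatt
Olig2, chr16:91225472-91225498: aggaaaagcaCATTGTTcccgcccccc
A match of letters is a description of the window and says nothing of binding.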

How the data were processed

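3'Pool-seq libraries were grouped by genotype, mouse, cDNA amount and set from their labels. The authors trimmed polyA stretches, aligned reads with STAR 2.4 to mm10 and counted them on GENCODE genes with featureCounts; whether strand was used is not given in the sources used here. The deposited values are raw counts per gene and library, without normalization. Positions are from GENCODE vM21 on mm10.

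Counts of the 4 libraries of each mouse were summed and compared with edgeR 4.0.16 in R 4.3.3 (TMM, filterByExpr, quasi-likelihood test, Benjamini-Hochberg), and likewise in each set. DESeq2 1.42.0, limma 3.58.1 (voom on 24 libraries), other scalings and filters, a block of replicate numbers, equal totals, leaving out each mouse and, chosen after seeing the data, set A or set B alone were alternatives. P-values of the edgeR and DESeq2 fits measure the spread between these mice. Those of limma-voom also rest on the spread between libraries of a mouse (correlation within mouse 0.114), and the sign-flip tests use differences within a mouse. The edgeR test of the summed libraries was checked on simulated data, and the other fits and tests were not. Changed genes in the simulation were drawn from better counted genes. Recovery at the counts of Cspg4, Olig2 and Myrf was therefore not checked. The sign-flip tests between library sets were added after values were seen.

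The 9 genes and the lists were chosen with earlier results of these data known. From each list, called genes were named, at most 4 by adjusted p, or else the 2 of highest mean CPM. Counting error was taken as Poisson and is a lower limit, since reads amplified by PCR and lacking molecular identifiers repeat molecules.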

Additional observations from a re-analysis of the deposited data

How the results depend on the processing

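In all 53 fits, 0 of 477 values of the 9 genes were called and 7 had an unadjusted p under 0.05. Of all genes, 263 were called with the libraries summed, 462 without a filter on low counts and 146 to 321 when 1 mouse was left out, fewest without GFAP-IL6 3. In the sets, leaving out 1 mouse gave 57 to 141 (2 ng, set A), 62 to 169 (1 ng, set A), 59 to 160 (2 ng, set B) and 54 to 162 (1 ng, set B), DESeq2 gave 77 in 2 ng set A, and the cause was not tested. Same-numbered mice did not deviate together (r = -0.05, -0.03 and -0.03), and with the replicate block 215 genes were called in the summed libraries and 83 in 2 ng set B, with 0 of the 9 genes in either.

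Signs of log2 fold changes near 0 turned. Leaving out 1 mouse gave -0.12 to 0.21 for Pdgfra, -0.0292 to 0.0962 for Cspg4, -0.221 to 0.0745 for Olig1, -0.29 to 0.23 for Sox10, -0.17 to 0.25 for Bcas1 and -0.674 to 0.0445 for Enpp6, while Olig2, Gpr17 and Myrf kept their sign. With set A alone Pdgfra was -0.0151, Cspg4 -0.355, Olig1 0.0150 and Sox10 0.00842, and with set B alone Sox10 was 0.0183. In limma-voom Olig1 was 0.00169 and Sox10 0.0863, and Sox10 was 0.0347 without TMM, 0.00110 without a filter and 0.00596 with at least 10 counts in every mouse. Counting error in the summed libraries was 2.24% of the level for Olig1 and at most 15.0% (Myrf), below the spread between mice of a genotype in all of the 9 genes but Cspg4.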
